A study of Mus musculus with 18 samples.

Results

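The 6123 peaks on chromosome 11 were 10.0% of the 61224 peaks in the larger of 2 deposited peak tables of mouse lymphoma and normal lymphocyte chromatin. They were selected on chromosome number alone, and the chromosome was chosen by the raised share of counts it takes in the lymphomas, so that rise is given here as a description without a test. The authors' annotation assigned them to 1742 of 20344 genes. By their deposited classes, 2011 peaks were intronic, 1931 promoter, 838 intergenic, 632 flanking, 433 exonic, 213 in a 3′ UTR and 65 in a 5′ UTR. Open chromatin was measured by ATAC-seq, in which the Tn5 transposase cuts and tags accessible DNA. The 9 lymphoma libraries (mPTCL, murine peripheral T-cell lymphoma) were p53KO on the C57BL/6 strain, arose after p53KO T cells were given to syngeneic CD3KO mice, and were sorted from liver with no gate named. The 3 T, 3 NKT and 3 NK libraries were wild type C57BL/6. The T cells were CD3+ Thy1+ and came from spleen, the NKT cells were CD3+ and bound a CD1d tetramer and came from liver per their gate although their titles carry the letters Sp, and the NK cells were CD27- CD11b+ and came from spleen. Every library was made from 10000 sorted cells. A lymphoma library differs from a normal one in genotype and in sort, and from T and NK libraries in tissue as well, so the parts of these cannot be told apart. Whether the 3 libraries of a normal group are 3 mice is not given, and p-values then describe only library-to-library spread, which may be technical.

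Mouse chromosome 11 carries much of the equipment of a T or NK cell. The CC chemokine cluster (Ccl3, Ccl4, Ccl5), the type 2 cytokine locus (Il4, Il13), the lineage factors Tbx21, Tcf7, Ikzf1 and Ikzf3, and the signal carriers Stat3, Stat5a and Stat5b all lie on it, as does Trp53 itself. A peak's count rises both when more copies of its DNA are present and when its chromatin is more open, and the 2 cannot be told apart in these counts. For that reason each gene was also compared with its own chromosome, with counts scaled within chromosome 11. A value relative to the chromosome says whether a gene rose more or less than chromosome 11 as a whole. It does not compare a gene with its neighbours, since the rise was not even along the chromosome. A gene can thus be lower relative to the chromosome without being lower when all genes are scaled together.

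Promoter DNA of 6 genes is shown because the promoter peak over it changed relative to the chromosome, upward at Ccl3 and downward at Stat3, Rel, Wdr92, Cdc27 and Zfp2. Each is the 250 bases before the RefSeq start on GRCm38.p6, written 5′ to 3′ on the gene's strand, with capitals marking matches to any of 7 searched motifs. The promoter peaks were at 1.75 (Ccl3), -0.58 (Stat3), -0.45 (Rel), -1.05 (Wdr92), -0.75 (Cdc27) and -2.79 (Zfp2) on the log2 scale. The Rel peak only just passed (edgeR adjusted p = 0.0493) and covers 89 of the 250 bases. Another Rel promoter peak was not called (-0.30, edgeR adjusted p = 0.209). Rel and Wdr92 lie at 15 to 30 Mb, where the median gene was at -0.57 relative to the chromosome. The Rel promoter value is less negative than that. With all genes scaled together the Rel gene was at 0.13 and was not called. The peaks over the Cacng5 and 4930505A04Rik windows were also higher (3.52 and 2.85). Those windows are not printed because the genes are weak, at 20.9 and 21.7 counts a library.
Ccl3 promoter: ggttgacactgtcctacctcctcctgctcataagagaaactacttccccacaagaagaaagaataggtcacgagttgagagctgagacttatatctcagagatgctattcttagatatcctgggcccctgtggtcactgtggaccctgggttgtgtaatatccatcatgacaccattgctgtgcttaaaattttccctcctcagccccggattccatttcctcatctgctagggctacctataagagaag
Stat3 promoter: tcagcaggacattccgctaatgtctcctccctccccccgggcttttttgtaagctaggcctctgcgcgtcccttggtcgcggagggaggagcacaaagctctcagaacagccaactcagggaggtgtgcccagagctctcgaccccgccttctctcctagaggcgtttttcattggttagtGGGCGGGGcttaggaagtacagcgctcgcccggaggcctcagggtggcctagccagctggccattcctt
Rel promoter: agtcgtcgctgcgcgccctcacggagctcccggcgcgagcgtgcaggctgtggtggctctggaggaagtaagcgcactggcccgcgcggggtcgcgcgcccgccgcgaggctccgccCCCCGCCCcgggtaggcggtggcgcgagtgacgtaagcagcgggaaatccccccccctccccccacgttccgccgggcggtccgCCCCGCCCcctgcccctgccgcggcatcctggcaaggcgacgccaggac
Wdr92 promoter: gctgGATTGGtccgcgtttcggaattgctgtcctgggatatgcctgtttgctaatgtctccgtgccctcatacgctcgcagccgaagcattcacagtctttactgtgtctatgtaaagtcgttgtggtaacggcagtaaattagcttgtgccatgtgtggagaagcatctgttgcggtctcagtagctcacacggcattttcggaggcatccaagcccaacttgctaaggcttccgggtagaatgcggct
Cdc27 promoter: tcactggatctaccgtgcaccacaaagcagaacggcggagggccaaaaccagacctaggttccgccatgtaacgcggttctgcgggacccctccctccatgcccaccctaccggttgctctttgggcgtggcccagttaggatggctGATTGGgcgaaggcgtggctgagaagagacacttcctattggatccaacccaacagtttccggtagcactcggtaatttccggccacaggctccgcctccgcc
Zfp2 promoter: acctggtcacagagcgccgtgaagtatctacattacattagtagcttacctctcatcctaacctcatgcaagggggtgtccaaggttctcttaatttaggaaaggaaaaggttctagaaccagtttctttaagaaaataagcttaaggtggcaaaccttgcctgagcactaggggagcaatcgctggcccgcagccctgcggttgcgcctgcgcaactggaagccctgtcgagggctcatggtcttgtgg
These are chr11:83649379-83649628 (minus strand) for Ccl3, a chemokine, chr11:100939541-100939790 (minus) for Stat3, a cytokine signal transducer, and chr11:23770970-23771219 (minus) for Rel, an NF-kappaB subunit. They are chr11:17211643-17211892 (plus) for Wdr92, chr11:104550621-104550870 (minus) for Cdc27, a subunit of the anaphase-promoting complex, and chr11:50916177-50916426 (minus) for Zfp2, a zinc-finger gene. The motifs, searched on both strands, were T-box AGGTGTGA, ETS CCGGAAGT, RUNX TGTGGTT, AP-1 TGANTCA, TCF/LEF ATCAAAG, SP/KLF GGGCGGGG and NF-Y GATTGG; overlapping matches were counted. GGGCGGGG was found once in the Stat3 window and at 2 places in the Rel window, and GATTGG once each in the Wdr92 and Cdc27 windows. None of the 7 was found in the Ccl3 or Zfp2 window. GGGCGGGG is common: it is in 16.1% of all 32851 RefSeq windows of this length, in 18.3% of the 2289 on chromosome 11 and in 32.6% of the 869 on chromosome 11 under a promoter peak. GATTGG is in 14.6%, 15.4% and 19.8% of the same 3 sets. The Rel window is the richest of the 6 in G and C (77.6%, with 37 CpG), and the Ccl3 window is the poorest (46.8%, with 2 CpG).

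Chromosome 11 took a larger share of counts in every lymphoma than in any normal library. The share ran from 9.34% (lymphoma 5) through a median of 11.3% to 13.6% (lymphoma 3), with a mean of 11.2% ± 1.27 (SD, n = 9). It was 8.12%, 7.49% and 8.78% in the T libraries. The NKT libraries had 8.26%, 8.50% and 8.04%, and the NK libraries 8.92%, 8.04% and 7.24%. The groups do not overlap, which is the property that chose the chromosome. Lymphoma over the mean of the 3 normal groups gave a ratio of 1.38, from 1.15 in lymphoma 5 to 1.67 in lymphoma 3. The ratio was 1.38 against T, 1.36 against NKT and 1.39 against NK cells. The 95% Wilson interval of a share was at most 0.171 percentage points wide (NK 1, the widest of the intervals), and such intervals cover counting error only. Lymphoma libraries held 80218 to 579699 chromosome 11 counts, T libraries 79538 to 207072 and NKT libraries 118375 to 731623. NK libraries held only 33544 to 43207, so their values are the least precise. Measured the same way, the share of chromosome 5 was 1.38 times and that of chromosome 15 was 1.66 times normal.

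**Figure D1:**
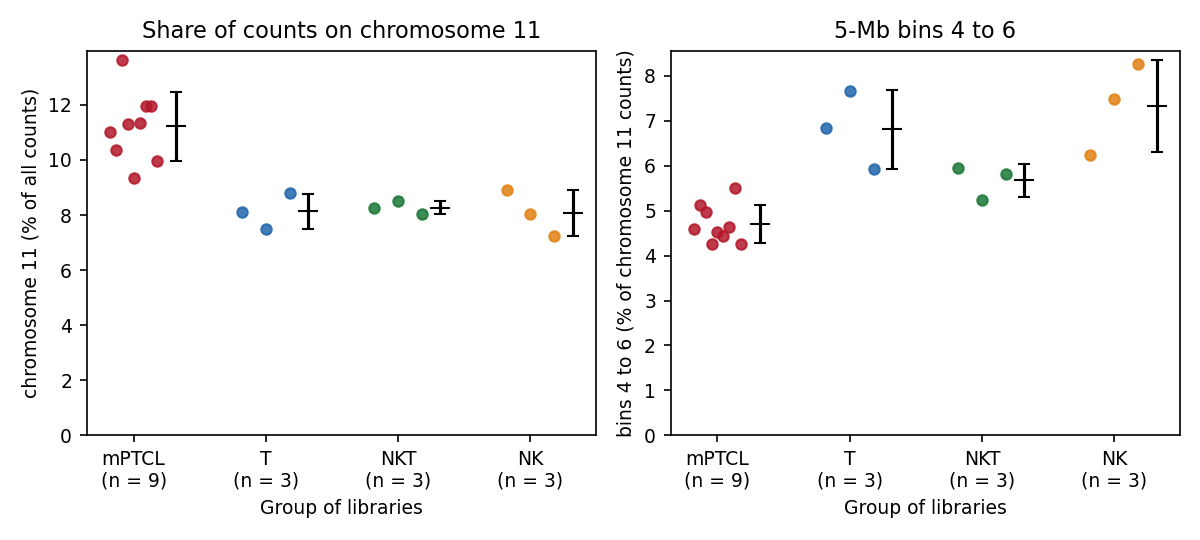
Left, counts on chromosome 11 as a percentage of all counts in peaks, by group; right, counts in 5-Mb bins 4 to 6 as a percentage of chromosome 11 counts. Points are libraries and bars are mean ± SD; on the left all 9 lymphomas lie above all 9 normal libraries (7.24% to 8.92%), and on the right 8 of 9 lie below all of them.

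The rise was not even along the chromosome. In bins of 5 Mb, 22 of 25 had a higher mean share of all counts in lymphomas than in normal groups, with ratios from 0.953 to 1.83 and a median of 1.38. In 11 bins all 9 lymphomas exceeded all 9 normal libraries. The 4936 peaks beyond 50 Mb had a ratio of 1.43 (1.20 to 1.73 over lymphomas), and 9 of 9 lymphomas were above every normal library. The 1187 peaks of the first 50 Mb had a ratio of 1.16 (0.943 to 1.45), with 7 of 9 above. As a part of chromosome 11 counts, the first 50 Mb made up 15.9% to 18.7% in lymphomas and 19.1% to 23.2% in normal libraries, with no overlap. The boundary of 50 Mb was chosen with the profile in view.

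Bin 23 (110 to 115 Mb, 152 peaks) rose most, with a ratio of 1.83, and the weakly open bin 8 (35 to 40 Mb, 44 peaks) followed with 1.71. In both, 9 of 9 lymphomas were above every normal library. Both bins hold weak peaks, with a median of 8.89 counts a normal library in bin 23 and 4.72 in bin 8. Among promoter peaks alone the ratio was 1.52 in bin 23 (27 peaks, 7 of 9 lymphomas above). In bin 8 it was 0.958 (5 peaks, 1 of 9 above). Bin 6 (25 to 30 Mb, 27 peaks) and bin 5 (20 to 25 Mb, 182 peaks) were lowest, with ratios of 0.953 and 0.960. There, the median lymphoma was at -0.17 and -0.09 on the log2 scale against the normal mean, lymphomas 3 and 8 lay above all normal libraries, and the others lay lower.

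**Figure D2:**
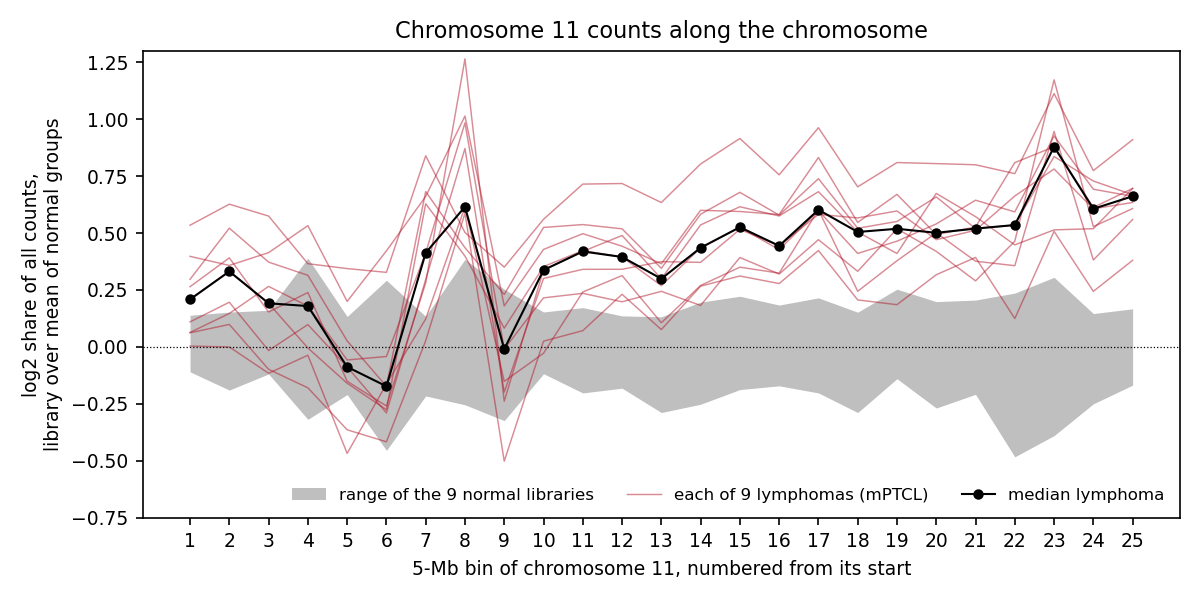
The log2 share of all counts in each of 25 bins of 5 Mb, relative to the mean of the 3 normal groups, for each lymphoma (thin lines), the median lymphoma (black) and the range of normal libraries (grey). The median lymphoma lies above the grey range at bins 1, 2, 3, 7 and 8 and at every bin from 10 on, and inside it at bins 4, 5, 6 and 9.

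The stretch from 15 to 30 Mb (bins 4 to 6, 280 peaks, singled out after the profile was seen) kept a share of all counts near normal, as did bin 9 (ratio 0.995). Taken singly, bins 4, 5 and 6 had ratios of 1.14, 0.960 and 0.953. In bin 4, 1 of 9 lymphomas was above every normal library. The whole stretch held 0.423% to 0.679% of all counts in lymphomas (median 0.506%) and 0.446% to 0.602% in normal libraries, a ratio of 0.990. Its part of chromosome 11 counts was 4.26% at the lowest, 4.59% at the median and 5.50% at the highest in lymphomas. It was 6.84%, 7.66% and 5.92% in T, 5.95%, 5.24% and 5.82% in NKT and 6.24%, 7.49% and 8.27% in NK libraries. Lymphoma 8 lies above the lowest NKT library, and the other 8 lie below all normal libraries. The normal groups also differ here, since all 3 NK libraries and 2 of 3 T libraries exceed every NKT library. Among the 113 peaks of this stretch in the 2 strongest of 5 level classes, the ratio was 1.03, against 1.40 for such peaks at 50 to 90 Mb and 1.50 at 90 to 125 Mb.

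The stretch was singled out on these same counts, for a share near normal on a chromosome that rose. That many of its genes are lower relative to the chromosome follows from that choice. The calls are given as a description, and nothing is read from their number. By the call rule used for all genes, 45 of the 79 genes assigned to 15 to 30 Mb were lower relative to the chromosome and 10 were higher (edgeR quasi-likelihood test, Benjamini-Hochberg adjusted p below 0.05 over all genes), with a median log2 fold change of -0.57. Over all genes of all chromosomes 17% were called lower and 25.7% higher by this rule. Of the 79 genes, 29 share a peak with another symbol and are not independent. Their median level was 135 counts a library, against 121 for chromosome 11.

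Several genes of this stretch, picked after their values were seen, are given as examples without a test, in chromosome CPM, the counts scaled to a fixed total of chromosome 11 counts. Xpo1, the main nuclear export receptor, ranged from 1513 through 1894 to 2376 in lymphomas and was 2980, 3811 and 2792 in T, 3525, 2743 and 3015 in NKT and 3761, 4259 and 4555 in NK libraries. All lymphomas were below all normal libraries, and the log2 fold change was -0.87 ± 0.11 (SE). Sertad2, B3gnt2, Actr2 (a subunit of the Arp2/3 complex) and Rtn4 also had all 9 lymphomas below all normal libraries, at -0.83, -1.06, -0.73 and -0.78. Rab1a, a small GTPase of early secretion, Usp34, a deubiquitinase, Peli1, a ubiquitin ligase, and Fancl, of the Fanconi anaemia pathway, had 8 of 9, at -0.80, -0.82, -0.72 and -0.72. Plek (pleckstrin) went the other way, at 0.74 ± 0.21: lymphomas had 374, 1017 and 1636 (lowest, median and highest). Its T libraries had 485, 456 and 390, its NKT libraries 201, 201 and 277, and its NK libraries 1808, 1720 and 4284. Lymphomas thus lie mostly between the T or NKT and the NK values at Plek.

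The rise was present in each class of peak. Counted among all peaks of a class, chromosome 11's share was 1.37 times normal for promoter, 1.31 for 5′ UTR, 1.40 for exonic, 1.36 for intronic, 1.33 for 3′ UTR, 1.35 for flanking and 1.45 for intergenic peaks. All 9 lymphomas were above all normal libraries for promoter, intronic, flanking and intergenic peaks, 8 for both UTR classes and 5 for exonic peaks. Promoter peaks held 60.1% of chromosome 11 counts in normal groups (54.0% to 63.6% over libraries) and 53.5% in lymphomas (48.4% to 57.2%). Intergenic peaks held 7.31% (6.02% to 9.12%) and 9.14% (8.30% to 10.1%). The libraries overlap in both classes. Chromosome 11's share rose 1.37-fold among promoter peaks and 1.38-fold over all peaks, so the promoter shift is not particular to this chromosome. By level over all libraries, from the weakest to the strongest of 5 classes, the ratio was 1.09, 1.22, 1.33, 1.39 and 1.38. As a share of all counts rather than of promoter counts, the 316 promoter peaks of the first 50 Mb had a ratio of 1.03, with 2 of 9 lymphomas above all normal libraries. The 1615 beyond it had 1.27, with 7 of 9. A check by promoter GC content is void, since only 47.1% of promoter peaks on chromosome 11 had a RefSeq window under them.

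With all chromosomes scaled together, 2497 of 6123 peaks were called higher in lymphomas and 145 lower, where 38.4% of all peaks were called. These calls contain the rise that chose the chromosome, and nothing is read from them. Scaled within the chromosome, 1326 peaks (21.7%) were higher and 500 (8.17%) lower, against a background of 31.9% called, 21.1% higher and 10.8% lower over all chromosomes. Promoter peaks were called lower about as often as higher, at 289 and 246 of 1931. The higher share was 12.7%, and promoter peaks of all chromosomes were lower in 18.3% and higher in 12.8%. Intergenic peaks were called higher in 284 and lower in 32 of 838, or 33.9% and 3.82%, where those of all chromosomes had 29.2% and 6.30%. The split of calls moves with the scaling. It is 72.6% higher by TMM, 81.0% by median-of-ratios factors (1689 higher, 395 lower) and 43.6% by cyclic loess (395 higher, 511 lower), and the median peak stands at 0.42, 0.53 and 0.01 on the log2 scale.

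Of 1742 genes, 454 were higher and 310 lower than the chromosome, or 43.9%, beside 42.7% of all genes under the same scaling. The share called on chromosome 11 is near that background. Scaled by chromosome totals the split was 537 higher and 230 lower, and by cyclic loess, which takes out the trend with level, 240 and 239 (limma, 30.8% of all genes called), while the median gene moved from 0.11 to 0.20 and 0.00. Calls also leaned with level. In the weakest of 5 level classes of genes (up to 33.2 counts a library) 150 were higher and 5 lower with a median of 0.94, and in the strongest (from 251 counts) 34 were higher and 137 lower with a median of -0.21.

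Against single normal groups the counts were 215 higher and 208 lower than T cells (background 25.3% called), 427 and 342 than NKT cells (41.7%), and 118 and 147 than NK cells (16.8%). Chromosome 11's own shares called were 24.3%, 44.1% and 15.2%. The T count of 423 fell to 245, 249 and 265 without T replicate 1, 2 or 3, and the NK count of 265 to 151 without NK replicate 2. Scaled by chromosome totals the splits were 253 and 157, 500 and 208, and 146 and 111. These 3 comparisons share the 9 lymphomas.

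**Figure D3:**
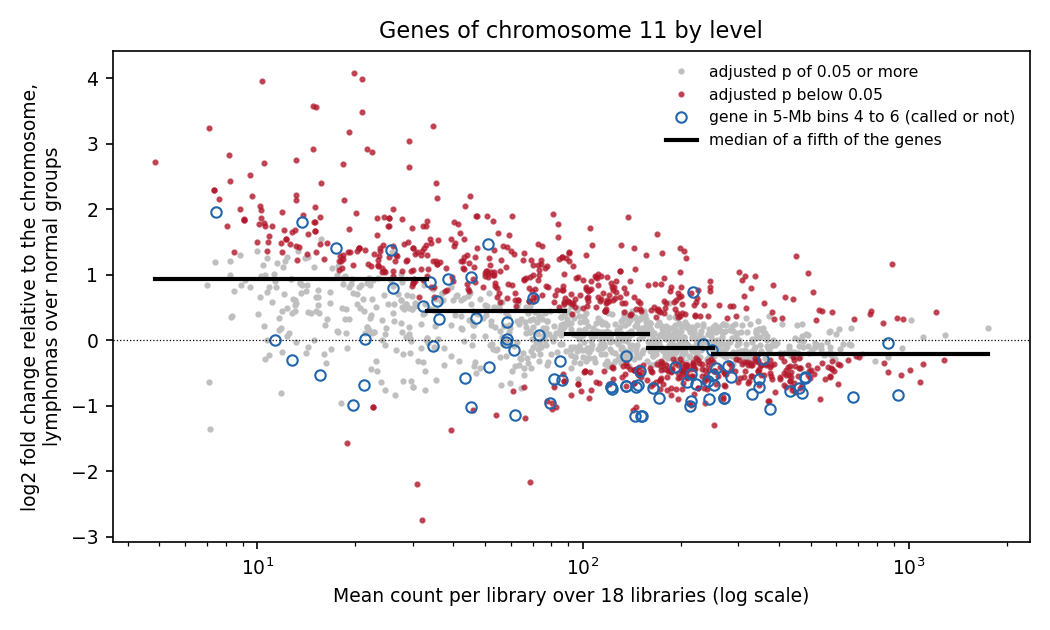
Each point is 1 of 1742 genes: mean count per library on a log axis against the log2 fold change relative to the chromosome, lymphomas over normal groups. Black bars, the medians of 5 level classes, step down from 0.94 to -0.21, and genes of 5-Mb bins 4 to 6 (blue circles) lie mostly below 0 among stronger genes.

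Of the preset genes, chemokines stood farthest above the chromosome. Ccl3, a chemokine that draws in leukocytes, ranged from 245 through 283 to 1204 chromosome CPM in lymphomas. The T libraries had 45.1, 58.2 and 89.6, the NKT libraries 48.2, 65.7 and 70.3, and the NK libraries 193, 226 and 248. All lymphomas exceeded T and NKT cells, and 8 of 9 exceeded the highest NK library. The log2 fold change was 1.90 ± 0.30 (SE; edgeR adjusted p = 3.95e-05) against the normal average, 2.43 against T, 2.53 against NKT and 0.74 ± 0.49 (adjusted p = 0.313) against NK cells. Its neighbours Ccl4 and Ccl5 were higher by 1.25 ± 0.17 (edgeR adjusted p = 5.50e-06) and 0.97 ± 0.15 (edgeR adjusted p = 2.69e-05). Against NK cells alone Ccl4 did not pass (0.46, edgeR adjusted p = 0.249). For Ccl5 the difference was 1.99 against T, 0.61 against NKT and 0.32 (edgeR adjusted p = 0.361) against NK cells. One of the 2 Ccl3 peaks also carries another symbol, and Ccl3 and Ccl4 are closely related genes.

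Il4 and Il13, type 2 cytokines at one locus, stood above T and below NKT cells. Il4 ranged from 185 through 284 to 329 in lymphomas and was 79.0, 136 and 71.7 in T, 353, 450 and 419 in NKT and 96.4, 169 and 45.1 in NK libraries. Lymphomas lay above all T and NK libraries and below all NKT libraries, at 1.51 against T (edgeR adjusted p = 0.00116), -0.63 against NKT (edgeR adjusted p = 0.034) and 1.40 against NK cells (edgeR adjusted p = 0.0156). The averaged value of 0.76 (edgeR adjusted p = 0.00611) was 0.44 (adjusted p = 0.0971) without NK cells as reference and 0.29 (limma adjusted p = 0.342) under cyclic loess. Il13 ranged from 458 through 673 to 1135 in lymphomas, against 226, 213 and 202 in T, 1293, 1208 and 1211 in NKT and 169, 395 and 474 in NK libraries. Its averaged value was 0.75 ± 0.19 (edgeR adjusted p = 0.00335).

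Of all genes 25.7% were called higher and 17% lower. Over the whole list of cytokine and chemokine genes, 10 of 15 measured were higher and 1 (Osm, a gp130 cytokine) was lower at -0.84. The median of these genes was 0.97, beside 0.11 for chromosome 11. Their median level of 60.7 counts a library lies in the second weakest level class, whose median was 0.45. With the level trend taken out 5 were higher and 1 lower, with a median of 0.45.

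**Figure D4:**
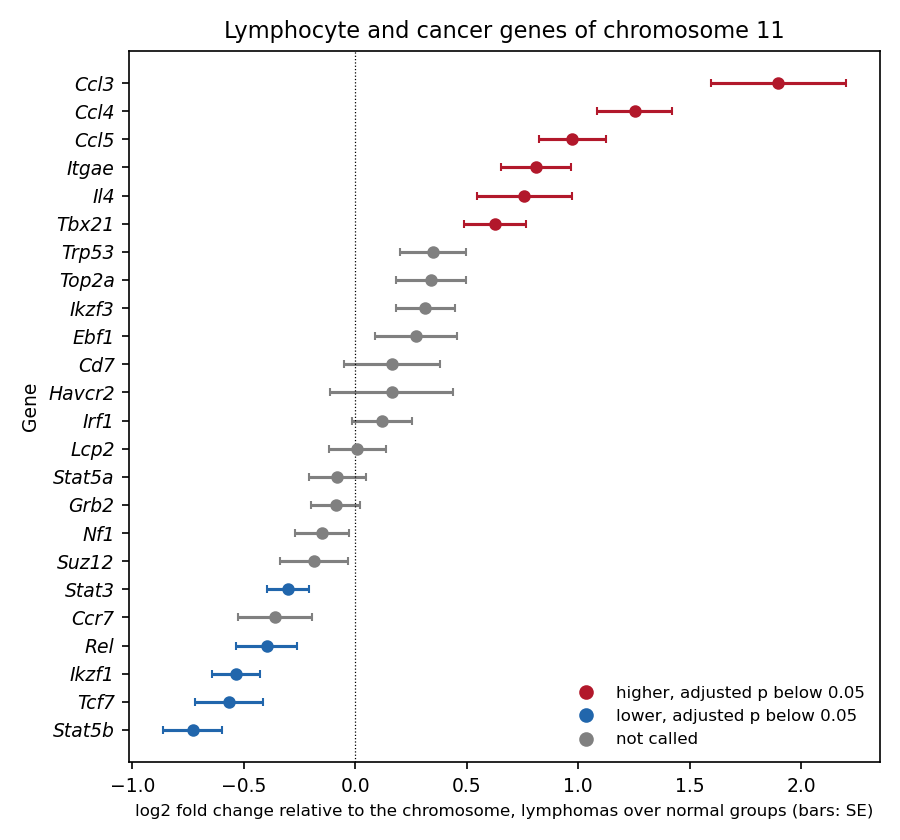
The log2 fold change relative to the chromosome (points, with SE bars) of lymphocyte and cancer genes, lymphomas over the mean of the normal groups. Chemokines, Itgae, Il4 and Tbx21 lie above 0 and are called, and Stat3, Rel, Ikzf1, Tcf7 and Stat5b lie below 0 and are called.

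Among receptors, Itgae, the alpha E integrin of tissue-resident T cells, ranged from 508 through 747 to 1227 in lymphomas. It was 271, 291 and 408 in T, 329, 491 and 565 in NKT and 530, 677 and 541 in NK libraries. Here 7 of 9 lymphomas exceeded all normal libraries, with a log2 fold change of 0.81 ± 0.16 (edgeR adjusted p = 0.000297). Itgae was not called in the smaller peak table (0.60, edgeR adjusted p = 0.136) or against NK cells alone (0.44, edgeR adjusted p = 0.244). The chemokine receptor Ccr7, which guides naive T cells to lymph nodes, was 0.36 below the chromosome's change on average without passing (edgeR adjusted p = 0.0857). Against T cells alone Ccr7 was lower, at -1.18 ± 0.22 (edgeR adjusted p = 0.000371). Cd7 (0.17) and the checkpoint receptor Havcr2 (0.16) did not pass. Of 21 surface receptor and adhesion genes, 6 were higher and 2 lower, near the 25.7% and below the 17% of all genes, with a median of 0.26. Under cyclic loess 3 were higher and 1 lower, with a median of -0.01.

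Among lymphocyte transcription factors the test called 6 of 17 lower and 3 higher and passed over 8. Over all genes 17% were lower and 25.7% higher. The median of the list was -0.08, at a median level of 372 counts. With the level trend taken out 2 were lower and 3 higher, with a median of 0.12. Ikzf1, encoding Ikaros, ranged from 2104 through 2695 to 3317 in lymphomas and was 3318, 4141 and 3303 in T, 4464, 4340 and 4352 in NKT and 3472, 3807 and 4667 in NK libraries. All but 1 lymphoma lay below every normal library in chromosome CPM, at -0.53 ± 0.11 (edgeR adjusted p = 0.000432). Against T cells alone Ikzf1 did not pass (-0.39, edgeR adjusted p = 0.0571). With all genes scaled together Ikzf1 was at -0.01 and was not called (edgeR adjusted p = 0.944). None of its 28 peaks was higher and 7 were lower, where 21.1% of all peaks were higher and 10.8% lower. Tcf7, the TCF-1 gene of naive and early T cells, was lower by 0.57 (log2 fold change -0.57 ± 0.15, edgeR adjusted p = 0.0048), with 7 of 9 lymphomas below all normal libraries. Its call was lost under cyclic loess (-0.39, limma adjusted p = 0.0669). Against NK cells alone Tcf7 did not pass (-0.41, edgeR adjusted p = 0.23). With all genes scaled together Tcf7 was at -0.03 and was not called (edgeR adjusted p = 0.883).

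The STAT genes did not move as one. Stat5b ranged from 838 through 1171 to 1414 in lymphomas and was 1964, 1910 and 2160 in T, 2064, 2734 and 2436 in NKT and 1302, 790 and 1646 in NK libraries. Lymphomas lay below all T and NKT libraries and overlapped NK, with -0.73 ± 0.13 (edgeR adjusted p = 0.000141) on average and -0.19 against NK cells (edgeR adjusted p = 0.568). The fall sat in 5 of 12 Stat5b peaks, where 10.8% of all peaks were called lower. They were intronic ones and the promoter peak at 100822235, with log2 fold changes down to -2.39. The promoter peak at 100850265 was at -0.01. Stat5a, the neighbour of Stat5b, was not called (-0.08). Stat3 was at -0.30 ± 0.09 (edgeR adjusted p = 0.0129). That call ended without NK cells as reference (-0.21, edgeR adjusted p = 0.0961). It also ended under chromosome totals (-0.21, edgeR adjusted p = 0.0721) and cyclic loess (-0.06, limma adjusted p = 0.679). With all genes scaled together Stat5b was at -0.22 and Stat3 at 0.21, and neither was called.

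Rel, within 15 to 30 Mb, was at -0.40 ± 0.14 (edgeR adjusted p = 0.0209), but its call rested on NK cells: -0.88 against NK, -0.16 against T and -0.15 against NKT cells, and -0.34 (adjusted p = 0.0550) without NK replicate 2. Its call also ended with T and NKT as reference, under chromosome totals, under cyclic loess and in the smaller table, at values between -0.15 and -0.31. With all genes scaled together Rel was at 0.13 and was not called. Grb2, Lcp2 and Irf1 stood at -0.09, 0.01 and 0.12 and were not called.

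Tbx21, encoding T-bet, the factor of type 1 and NK programmes, outran the chromosome. It ranged from 1124 through 1583 to 2279 in lymphomas and was 474, 737 and 578 in T, 1927, 1711 and 1738 in NKT and 1061, 733 and 1218 in NK libraries. Lymphomas lay above all T libraries and overlapped NKT and NK libraries, with 0.63 ± 0.14 (edgeR adjusted p = 0.000919) on average, 1.41 against T, -0.17 (edgeR adjusted p = 0.446) against NKT and 0.65 against NK cells. Of its 14 peaks 3 were higher and none lower, where 21.1% of all peaks were higher and 10.8% lower. Ikzf3, encoding Aiolos, was at 0.31 ± 0.13 and just missed (edgeR adjusted p = 0.0585), passing against T cells alone (0.67, edgeR adjusted p = 0.0138). Its side of the threshold changed under 11 alternatives.

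**Figure D5:**
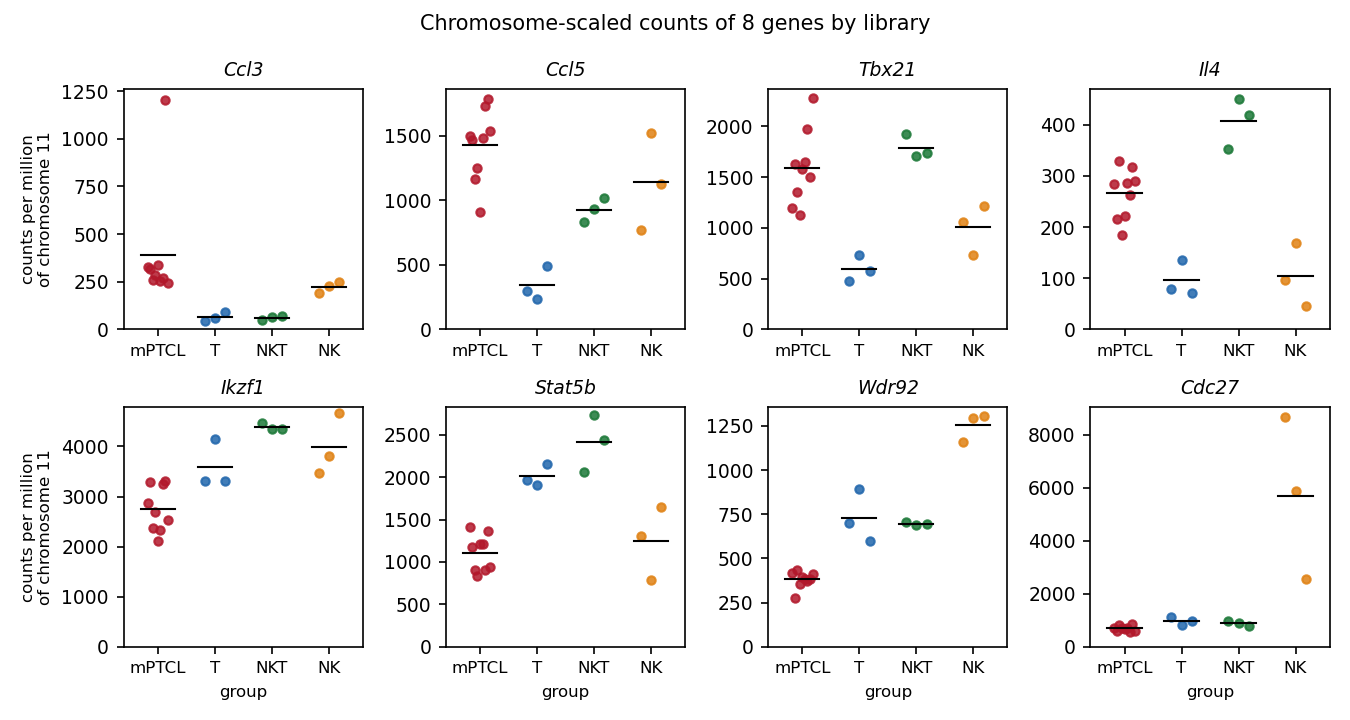
Chromosome CPM of 8 genes in each library (points) with group means (bars), on axes from 0. Ccl3 is highest in lymphoma 8 (1204), Il4 and Tbx21 in lymphomas lie well above T cells, Wdr92 in all lymphomas lies below every normal library, and Cdc27 is highest in NK cells.

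Trp53, the knocked-out gene, kept its peaks: it ranged from 509 through 710 to 882 in lymphomas and was 847, 659 and 775 in T, 426, 542 and 513 in NKT and 675, 310 and 293 in NK libraries. The groups overlap, and the value of 0.35 ± 0.15 did not pass (edgeR adjusted p = 0.0603), although it passed under 10 alternatives. Which part of Trp53 the knockout removes is not given, and 2 of its 3 peaks carry another symbol, so these peaks do not check the knockout. Of 21 tumour suppressor and genome maintenance genes, 10 were lower, none higher, and the median was -0.31, where 17% of all genes were lower and 25.7% higher. Ccng1, encoding cyclin G1 and a p53 target, was lowest of them, with 560, 600 and 772 (lowest, median and highest) in lymphomas and 1219, 1329 and 1573 in T, 699, 761 and 885 in NKT and 1109, 1467 and 1240 in NK libraries. Lymphomas overlapped NKT cells and lay below T and NK cells at Ccng1, with -0.82 ± 0.11 (edgeR adjusted p = 5.22e-06). Ccng1 lies in bin 9, whose share of all counts was 0.995 of normal. The median gene of that bin was at -0.14 relative to the chromosome. The part of the bin in the Ccng1 value was not tested. Brca1, both of whose peaks carry another symbol, was at -0.51, Nf2 at -0.39, and Nf1 at -0.15 was not called. The list's median level of 220 counts lies in the second strongest level class, whose median was -0.12, and under cyclic loess 2 were lower and 1 higher.

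Of 20 growth and cell cycle genes 4 were higher and 7 lower, with a median of 0.01, where 25.7% of all genes were higher and 17% lower. Under cyclic loess 4 were higher and 5 lower. Tk1 (thymidine kinase), Psmd3, Birc5 (survivin) and Cdk12 were higher, at 0.99, 0.62, 0.52 and 0.35, whereas Top2a was at 0.34 without passing (edgeR adjusted p = 0.0859). Hmmr, a mitotic spindle gene beside Ccng1 in bin 9, was lower in all 9 lymphomas than in any normal library, at -0.99 ± 0.12 (edgeR adjusted p = 2.35e-06). Cdc27 was among the 8 lowest genes of the chromosome at -1.30, but its level set NK cells apart. It was 578 to 863 in lymphomas, 1129, 815 and 964 in T, 988, 899 and 797 in NKT, and 8655, 5894 and 2548 in NK libraries, and the values against T (-0.48) and NKT cells (-0.36) did not pass (edgeR adjusted p = 0.109 and 0.171).

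Chromatin regulators gave 5 lower and none higher of 23, with a median of -0.19, where 17% of all genes were lower and 25.7% higher. Under cyclic loess 2 were lower, with a median of -0.01. Kat7, a histone acetyltransferase, was lowest at -0.72 with 9 of 9 lymphomas below all normal libraries. Among 19 lymphocyte signalling genes 2 were higher and 6 lower (median -0.08), and under cyclic loess 1 and 2 (median 0.10). The lowest was Map2k4, a kinase upstream of JNK, at -1.07 with 8 of 9 lymphomas below all normal libraries. Of 8 Schlafen genes only Slfn1 was called, lower at -0.93, and these genes are close relatives whose reads can be shared. Of 6 Hoxb genes 2 were higher, with a median of 0.38, and none was called under cyclic loess, with a median of 0.06. Of 10 keratin, myosin and globin genes 7 were higher with a median of 1.65. That last list has a median level of 24.7 counts, in the weakest level class, and under cyclic loess 2 were higher and 1 lower. Hba-a1 and Hbq1b rest on the same single peak. All 10 lists were drawn up with earlier results of these data known, so their directions are not independent evidence.

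The 8 genes farthest above the chromosome were all weak, at 20.9 to 35.3 counts a library. Cacng5 led with 45.4, 101 and 223 (lowest, median and highest) in lymphomas, 67.7, 29.1 and 35.9 in T and 32.1, 10.9 and 26.0 in NKT libraries. Its NK libraries had 0 counts in all, as did those of Gm11753, so the fitted differences of these 2 against the normal average depend on the prior count. Against NKT cells Cacng5 was at 2.45 ± 0.56 (edgeR adjusted p = 0.00177) and Gm11753 at 2.20 ± 0.57 (edgeR adjusted p = 0.0042). Aoc3, an amine oxidase of vessels and fat, ranged from 78.2 through 239 to 395 in lymphomas, against 0, 19.4 and 44.8 in T, 16.1, 2.74 and 11.7 in NKT and 0, 56.4 and 90.2 in NK libraries. All but 1 lymphoma exceeded every normal library at Aoc3, with 3.27 ± 0.44 (edgeR adjusted p = 5.96e-06). Gm12246, 4930505A04Rik, 4933428G20Rik, Mir7236 and Gm11637 followed, at 3.04, 2.92, 2.87, 2.64 and 2.39, each with 4 to 8 of 9 lymphomas above all normal libraries.

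The 8 lowest genes were Zfp2, Gm47300, Hist3h2ba, Mup-ps22, Cdc27, Gm45605, Wdr92 and Sec61g. Zfp2 had 0, 39.4 and 87.7 (lowest, median and highest) in lymphomas and 463, 543 and 336 in T, 80.3, 193 and 171 in NKT and 530, 56.4 and 45.1 in NK libraries. Its log2 fold change was -2.75 ± 0.49 (edgeR adjusted p = 0.000129), and 6 of 9 lymphomas lay below all normal libraries. Hist3h2ba, a histone H2B gene, was at -2.16 ± 0.32 (edgeR adjusted p = 1.73e-05). The most even was Wdr92, in 15 to 30 Mb, with 274, 386 and 435 in lymphomas and 700, 892 and 601 in T, 707, 688 and 693 in NKT and 1157, 1297 and 1308 in NK libraries. No lymphoma overlapped a normal library at Wdr92, with -1.17 ± 0.12 (edgeR adjusted p = 2.02e-07). Sec61g, a subunit of the Sec61 translocon and in the same stretch, was at -1.16 ± 0.18 (edgeR adjusted p = 2.29e-05), with 8 of 9 below. The values of Wdr92 and Sec61g relative to the chromosome contain the low rise of that stretch. With all genes scaled together both were at -0.64.

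The 3 highest and 3 lowest single peaks are given here. All 3 highest had 0 counts in NK libraries, so their fitted differences depend on the prior count. Zfp2 has only 1 peak, so its peak and its gene rest on the same counts. An intronic peak of Slc39a11, a zinc transporter gene, at chr11:113640905-113641405 (mm10, as deposited) had 67.1, 160 and 361 in lymphomas and at most 25.5 in T, 18.9 in NKT and 0 in NK libraries. Its 382 lymphoma counts stand against 6 in T, 11 in NKT and 0 in NK libraries, and all 9 lymphomas exceeded every normal library. Intergenic peaks at chr11:90697459-90697959 and chr11:51875649-51876149 also had 0 counts in NK libraries, with 403 and 354 counts in lymphomas, against 15 and 12 in T and 20 and 40 in NKT libraries. At the first of these 7 of 9 lymphomas exceeded every normal library, and at the other all 9 did. The lowest peaks were the Zfp2 promoter (chr11:50915824-50916324) at -2.79 ± 0.45 (edgeR adjusted p = 4.22e-05), a Limk2 promoter peak (chr11:3371315-3371815) at -2.74 and an intronic peak of Znrf3, which encodes a Wnt-receptor ubiquitin ligase (chr11:5411600-5412100), at -2.60. Of the lymphomas, 4, 0 and 7 lay below every normal library at these 3 peaks.

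Comparisons among normal cells contrast no lymphoma, although all 18 libraries enter the fit and share its scaling and spread. With the 9 normal libraries fitted alone the 3 counts below (93, 61 and 273) were 118, 121 and 265. NK against T cells gave 45 higher and 48 lower genes of chromosome 11 (background 5.48% called), NKT against T cells 36 and 25 (4.54%), and NK against NKT cells 141 and 132 (14.8%). Chromosome 11's shares of 5.34%, 3.50% and 15.7% are near those backgrounds. The first count of 93 became 35, 48 or 35 without T replicate 1, 2 or 3, and 146, 44 or 27 without NK replicate 1, 2 or 3. The second, 61, became 30, 19 or 40 without T replicate 1, 2 or 3, and 32, 21 or 26 without NKT replicate 1, 2 or 3. The third, 273, became 134 without NKT replicate 2 and 149 without NK replicate 3. With median-of-ratios factors the splits were 57 and 35, 29 and 34, and 175 and 84, and with library totals 46 and 47, 27 and 37, and 160 and 98. These 3 comparisons share libraries. Those with NKT cells also set liver against spleen, so cell type and tissue cannot be told apart in them.

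NKT cells, from liver per their gate, exceeded T cells, from spleen, at the type 2 cytokine locus and at T-bet. With all genes scaled together, the log2 difference of NKT over T was 2.19 ± 0.40 at Il4 (edgeR adjusted p = 0.0013), 2.58 ± 0.32 at Il13 (edgeR adjusted p = 3.8e-05), 1.63 ± 0.25 at Tbx21 (edgeR adjusted p = 0.000254) and 1.42 ± 0.30 at Ccl5 (edgeR adjusted p = 0.0057). Csf2, encoding GM-CSF, at the same locus was higher by 3.16 ± 0.73 (edgeR adjusted p = 0.0114), with 25.7, 27.1 and 24.3 CPM in NKT and 0, 5.06 and 3.01 in T libraries. Ccr7 was lower in NKT than in T cells by 1.53 (log2 difference -1.53 ± 0.31, edgeR adjusted p = 0.0042). NK over NKT cells gave 4.52 ± 0.74 at the chemokine gene Ccl9 (edgeR adjusted p = 0.000207) and 3.93 ± 0.68 at the B-lineage factor Bcl11a (edgeR adjusted p = 0.000411). NK over T cells gave 2.55 ± 0.34 at Cdc27 (edgeR adjusted p = 9.2e-05).

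The genes farthest apart were otherwise weakly open. They were E230016K23Rik, Mycbpap and Efcab3 at 5.12, 3.50 and 3.36 and Gm47300 at -3.54 for NK over T cells. For NKT over T cells they were Gm12120 (3.80), Epx (3.19, eosinophil peroxidase), D630024D03Rik (-3.03), Pmp22 (-3.02, a myelin protein) and Gm12246 (-2.82). For NK over NKT cells they were Krt14 (3.53, a keratin), A830035A12Rik (-3.32) and Trim80 (-3.01). Gm11695 and Gm11753 had 0 counts in NK libraries and 81 and 33 counts in T libraries, so their fitted differences depend on the prior count.

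The sorted cells could hold other types, and their markers were summed as CPM over all chromosomes. T-cell markers (6 of 6 measured) totalled 228 to 388 in lymphomas. The T libraries had 321 to 430, the NKT libraries 550 to 593 and the NK libraries 145 to 211, and further sums follow in that order. Myeloid markers (5 of 8 measured, Cd68 and Mpo on chromosome 11) totalled 108 to 144, 50.6 to 69.6, 52.8 to 60.1 and 106 to 164. B-cell markers (4 of 7, Cd79b and Ebf1 on chromosome 11) totalled 90.2 to 178, 60.7 to 70.3, 38.9 to 40.8 and 90.1 to 156, and hepatocyte markers (2 of 6, G6pc on chromosome 11) 29.2 to 78.5, 11.7 to 20.7, 3.96 to 13.9 and 19.4 to 53.7. Lymphomas thus exceed T and NKT cells for the myeloid, B-cell and hepatocyte sums and overlap NK cells. NK-cell markers (5 of 5) totalled 128 to 226, 79.5 to 122, 52.1 to 92.7 and 136 to 157, endothelial and stromal markers (4 of 6) 111 to 230, 135 to 174, 95.7 to 110 and 114 to 245, and erythroid markers (3 of 5) 27.3 to 59.3, 25.3 to 44.1, 27.7 to 44.8 and 6.46 to 36.9. No measured marker was at 0 in all libraries of a group. The part of such cells in the results was not tested.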

How the data were processed

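ATAC-seq was carried out on 18 mouse libraries. The authors deposited whole-number counts per peak of 500 bp and log2 CPM values on mm10, naming MACS2 2.1.2, bedtools and edgeR 3.24.3, per the submitters' processing notes. For the aligner and peak threshold, no name is given in the sources used here. Totals in peaks ran from 417107 to 9097014 counts. Positions are printed as deposited, and whether starts count from 0 or 1 is not stated. Counts were summed per gene symbol, and a peak with 2 symbols counted for both. edgeR 4.0.16 quasi-likelihood tests (4 groups, 14 residual degrees of freedom) used TMM within each chromosome or over all genes, with Benjamini-Hochberg adjustment over all features at 0.05; a low-count filter left out 0 genes and 4 peaks. Chromosome CPM are counts scaled to chromosome 11 totals after TMM. Scripts were tested on simulated data for lymphoma against normal, among 20076 genes. They recovered 67.3% of 108 genes changed by 1 on the log2 scale and 100% of 92 changed by 2. The simulation raised chromosome 11 evenly by 1.4-fold, with the same spread for all genes and no trend with level. Its rates need not hold for these data. Named were 26 preset genes (Erbb2 had no peak, and 1 is not reported here), the 8 highest and 8 lowest genes and 3 and 3 peaks (adjusted p below 0.05, mean count of at least 20, at least 8 of 9 lymphomas on 1 side), the 2 highest and 2 lowest bins, and the 3 highest and lowest genes of each normal comparison. Other genes are named from fixed lists or, where said, after their values were seen. Members and lists were chosen with earlier results of these data known. Alternatives used DESeq2 1.42.0, limma 3.58.1, other scalings and filters, the smaller table and libraries left out; cyclic loess and leaving out lymphomas were added after seeing the data. Of 1742 genes 65.7% had a RefSeq promoter window. No peak sequence was read, since no genome was used here. No pair of replicates agreed within sampling noise (lowest chi-square per degree of freedom 2.18 over 45 pairs).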

Additional observations from a re-analysis of the deposited data

Results flagged for a closer look

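In 46 sets of lymphoma values, 6 had a library far from the other lymphomas by its gap over the range of the 9; chance flags about 1 in 20 groups. In chromosome CPM, lymphoma 8 was far above the others for Ccl3 (1204) and Grb2 (2533), and lymphoma 2 for Lcp2 (1127) and Sec61g (605). Lymphoma 2 was far below the others for Wdr92 (274), and lymphoma 5 far above for Gm11637 (372). Lymphoma 8 had the fewest chromosome 11 counts of the 9 (80218).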

How the results depend on the processing

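The share ratio of 1.38 stayed from 1.34 to 1.40 with each library left out. Genes called relative to the chromosome (764 against normal, 423 against T, 769 against NKT) came to 391, 150 and 262 in the smaller table, which has fewer peaks, and to 479, 249 and 413 under cyclic loess. Leaving out 1 library gave 702 to 773, 245 to 265 and 538 to 577, and 151 to 294 against NK cells. The count of 1826 peaks called within the chromosome was 1088 for a mean count of at least 20, 527 in the smaller table and 906 under cyclic loess, and 1540 to 1971 with a library left out. Scaled over all peaks the count of 2642 was 1753 for a mean count of at least 20, 1115 in the smaller table and 2313 to 3107 with a normal library left out. NK against T cells gave 48 genes in the smaller table, 145 by DESeq2 and 27 to 146 with a library left out. NKT against T cells gave 40, 116 and 19 to 40, and 121 with the 9 normal libraries fitted alone. NK against NKT cells gave 120 in the smaller table and 134 to 360 with a library left out. With a replicate block in the 9 normal libraries the 3 counts were 94, 78 and 230, and same-numbered libraries did not deviate together (9 correlations from -0.115 to 0.0683). Of 1055 values for 41 named genes under alternatives, 1013 stayed on their side of the threshold, 27 newly passed and 15 no longer passed; no value that passed changed sign. NK libraries are the shallowest, so their comparisons are the least precise. The causes were not tested.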
